A study of Mus musculus with 195 samples.

Results

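Gene expression was compared between single mouse embryonic stem cells grown in serum (ESC-FCS) and single mouse embryonic stem cells grown with a pair of kinase inhibitors (ESC-2i). The cells were taken from the deposited table of molecules per gene, which holds 33 cells of each population, so that 66 of its 107 cells entered the comparison, out of 144 main single cells in the study (48 sorted per population). Both populations were the 46C line, an E14tg2a derivative in which GFP reports Sox1, grown on gelatin and sorted as small cells in G0/G1. ESC-FCS cells were kept in GMEM with 10% serum and 10 ng/ml LIF. ESC-2i cells were kept without serum in DMEM/F12 with N2 and B27 supplements, 1 µM of the MEK inhibitor PD0325901, 3 µM of the GSK3 inhibitor CHIR99021 and 10 ng/ml LIF. The media therefore differed in serum, inhibitors, supplements and base, and the parts of these in a difference cannot be told apart. The labels name no replicate cultures, so each population counts as 1 culture of 1 line, and no test between the media was possible. Values are given with counting errors and with their spread over library batches.

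Mouse embryonic stem cells self-renew with LIF, a cytokine that acts through STAT3. Serum adds BMP activity, which induces Id genes, while autocrine FGF4 signals through MEK and ERK and favours exit from the naive state. Blocking MEK, and stabilising beta-catenin by blocking GSK3, holds the cells in a state called ground or naive pluripotency, close to the epiblast of the preimplantation embryo. Serum cultures are known to hold a mixture of cells closer to and further from that state, and to carry higher levels of DNA methylation.

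In BATSeq, each polyadenylated transcript receives a random molecular identifier during reverse transcription and is sequenced at its 3′ end, so that the counts are numbers of transcript molecules. Since each transcript is counted once at its end, levels were not divided by length, although recovery by length differed between libraries (values for the pools are given further on). The level of a gene is its number of molecules pooled over the cells of a population per 10000 gene molecules of those cells. The pools held 226683 gene molecules in ESC-FCS (1079 to 14819 per cell, median 6375) and 368362 in ESC-2i (5342 to 21050 per cell, median 10864). Each population had been prepared in 2 library batches, with 19 and 14 cells in ESC-FCS and 17 and 16 in ESC-2i. The same 24 cell barcodes were used in all 4 batches, which carried different batch barcodes. All 11 embryonic stem cell markers were detected in both populations, with a summed level of 33.8 in ESC-FCS and 40.7 in ESC-2i. The summed levels of markers of other cells were 0.971 and 0.380 for neural stem cells, 0 and 0.0271 for fibroblasts, 0.265 and 0.0271 for primitive endoderm, 0.397 and 1.17 for trophectoderm, 0.0882 and 0.543 for mesoderm and 0 in both for 2-cell-like cells. Most of the trophectoderm sum was Tfap2c, a factor that embryonic stem cells also express, and Cdx2, Elf5, Gata3 and Hand1 were at 0. The rest of this sum in ESC-2i was Eomes, which was also the highest mesoderm marker there. Stress genes summed to 0.838 and 0.733.

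Of the genes in the table, 3535 had a mean of both levels of at least 0.5 per 10000, and these were compared. A gene under 0.5 in 1 population passed this floor only through the other, so that counts of called genes were partly set by the floor. The median log2 fold, always given as ESC-FCS over ESC-2i, was 0.00 over these genes, and 58.9% of them differed by less than 1.5-fold. A gene was called when its pooled levels differed at least 2-fold and the direction was the same in all 4 pairs of an ESC-FCS and an ESC-2i library batch. By this rule 262 genes were higher in ESC-FCS (7.41% of those compared) and 355 were higher in ESC-2i (10.0%), or 617 in either direction (17.5%). The 2-fold difference of the pooled levels alone was met by 285 (8.06%) and 365 genes (10.3%). The 95% interval of the ratio, exact and covering counting error only, excluded equal levels for 249 of the 262 and 329 of the 355 genes. The same counts had selected these genes at 2-fold, so this describes the calls and gives no separate support for them. Irrespective of size, 1788 genes (50.6%) had the same direction in all 4 pairs. Both pairs that share no library (batch 1 against batch 1, and batch 2 against batch 2) gave the same direction for 2288 genes (64.7%). For comparison, the batches of a population differed at least 2-fold from each other in 705 genes (19.9%) in ESC-FCS and 462 genes (13.1%) in ESC-2i, at the lower depth of single batches, and single batches of different populations in 24.7% to 29.9% of genes. Among the 233 genes with a mean level of at least 5, these numbers were 3 (1.29%) and 2 (0.858%), while 18 were called (7.73%), 8 higher in ESC-FCS (3.43%) and 10 higher in ESC-2i (4.29%).

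**Figure D1:**
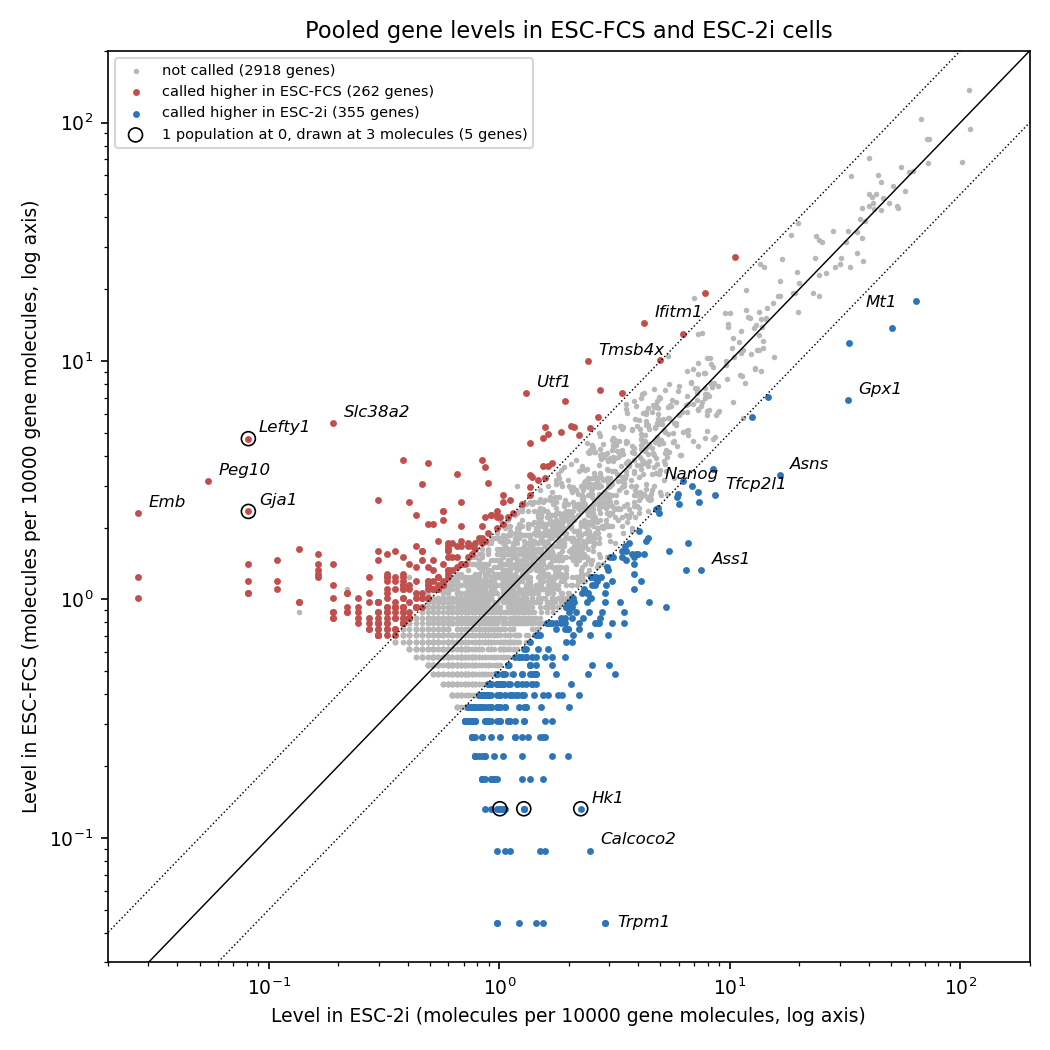
Level of each of the 3535 genes in ESC-2i (x axis) and ESC-FCS (y axis), in molecules per 10000 gene molecules on log axes, with equality as a solid line and 2-fold differences as dotted lines. Most genes follow the line of equality, and the 262 red and 355 blue genes are those called higher in ESC-FCS and ESC-2i. Circles mark 5 genes at 0 in 1 population, drawn at the level of 3 molecules.

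All levels are relative to the gene molecules of the same cells. The spike-in RNA added to each well gave 24.0 gene molecules per spike-in molecule in ESC-FCS and 11.7 in ESC-2i. Scaling by spike-in molecules moved the median log2 fold of all genes from 0.00 to 1.04, and a log2 fold on the ESC-2i side that is smaller than this shift then turns to the ESC-FCS side. The folds and list medians below are relative to the other genes unless spike-in scaling is named. With spike-in scaling each of the 24 list medians moves by the same shift and lies on the ESC-FCS side. The share of molecules from the mitochondrial genome was 1.95% in ESC-FCS and 1.72% in ESC-2i.

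The largest folds towards ESC-FCS were those of genes nearly absent from the single ESC-2i cells. Emb, which encodes embigin, a membrane partner of monocarboxylate transporters (ENSMUSG00000021728, chromosome 13, 117208536 to 117274415, + strand, coordinates in GRCm38), was represented by 52 molecules, spread over 21 of the 33 ESC-FCS cells, and by 1 molecule in ESC-2i. Its level in ESC-FCS cells ran from 0 over a median of 1.61 to 10.3, against a highest value of 0.475 in ESC-2i. The batch levels were 2.53 and 1.97 in ESC-FCS against 0 and 0.0516 in ESC-2i, a log2 fold of 6.40 (interval 3.86 to 11.73). Lefty1, a secreted inhibitor of Nodal and a direct target of the pathway (ENSMUSG00000038793, chromosome 1, 180935022 to 180938400, + strand), had 107 molecules in 25 ESC-FCS cells and none in ESC-2i. The levels of both ESC-FCS batches, 4.45 and 5.08, lay far above the limit of 0.0814 that a count of 0 allows in ESC-2i (3 molecules over the population), so that Lefty1 was at least 58.0-fold higher against that limit (lower end of the exact 95% interval 46.3). Its ESC-FCS cells ranged from 0 to 18.6 with a median of 2.71. Peg10, an imprinted gene derived from a retrotransposon and needed for the placenta (ENSMUSG00000092035, chromosome 6, 4747306 to 4760517, + strand), had 71 molecules in ESC-FCS and 2 in ESC-2i, with a log2 fold of 5.85 (3.94 to 8.92). Only 18 ESC-FCS cells held a Peg10 molecule, and the highest of them reached 12.9.

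Gja1, the gap-junction protein connexin 43, had 53 molecules in 18 ESC-FCS cells and none in ESC-2i, and was at least 28.7-fold higher against the same limit (lower end of the interval 22.5). Slc38a2, a sodium-coupled transporter of neutral amino acids (ENSMUSG00000022462, chromosome 15, 96687392 to 96699730, - strand), was among the more abundant of these genes. Its batch levels were 5.53 and 5.39 in ESC-FCS against 0.229 and 0.155 in ESC-2i, a 28.8-fold difference (13.6 to 73.1). Even with each cell thinned to 2000 molecules, a Slc38a2 molecule was left in 20 of 32 ESC-FCS cells and in 1 of 33 ESC-2i cells. Col18a1 (a basement membrane collagen), Lin28a (an RNA-binding protein that blocks let-7 maturation), Nt5dc2 and Gldc (the glycine-decarboxylating enzyme) were higher in ESC-FCS by 10.1-, 8.72-, 7.67- and 6.60-fold. Col18a1 was at 2.53 in ESC-FCS batch 1 and 5.60 in batch 2, and without the latter its log2 fold was 2.74. The transcription factor Utf1 was 5.62-fold higher (4.05 to 7.92), with levels of 7.75 and 6.74 against 1.43 and 1.19, and Cks1b, a CDK-binding subunit, 5.18-fold higher (2.91 to 9.73). Gm38393 (6.28-fold) overlaps Snrpn and Snurf on its own strand, so its molecules cannot be told from those of these imprinted genes. As the rule for a call requires, in all of these genes the lower ESC-FCS batch was above the higher ESC-2i batch. For genes at 0 to 2 molecules in ESC-2i the size of the fold depends on those few molecules. Without ESC-2i library batch 2, where they were found, the log2 fold was at least 3.74 for Emb and at least 4.19 for Peg10, and without 1 or the other ESC-2i batch at least 4.78 for Lefty1 and at least 3.77 for Gja1. Without ESC-2i library batch 1, Emb was at 5.48 and Peg10 at 4.92.

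**Figure D2:**
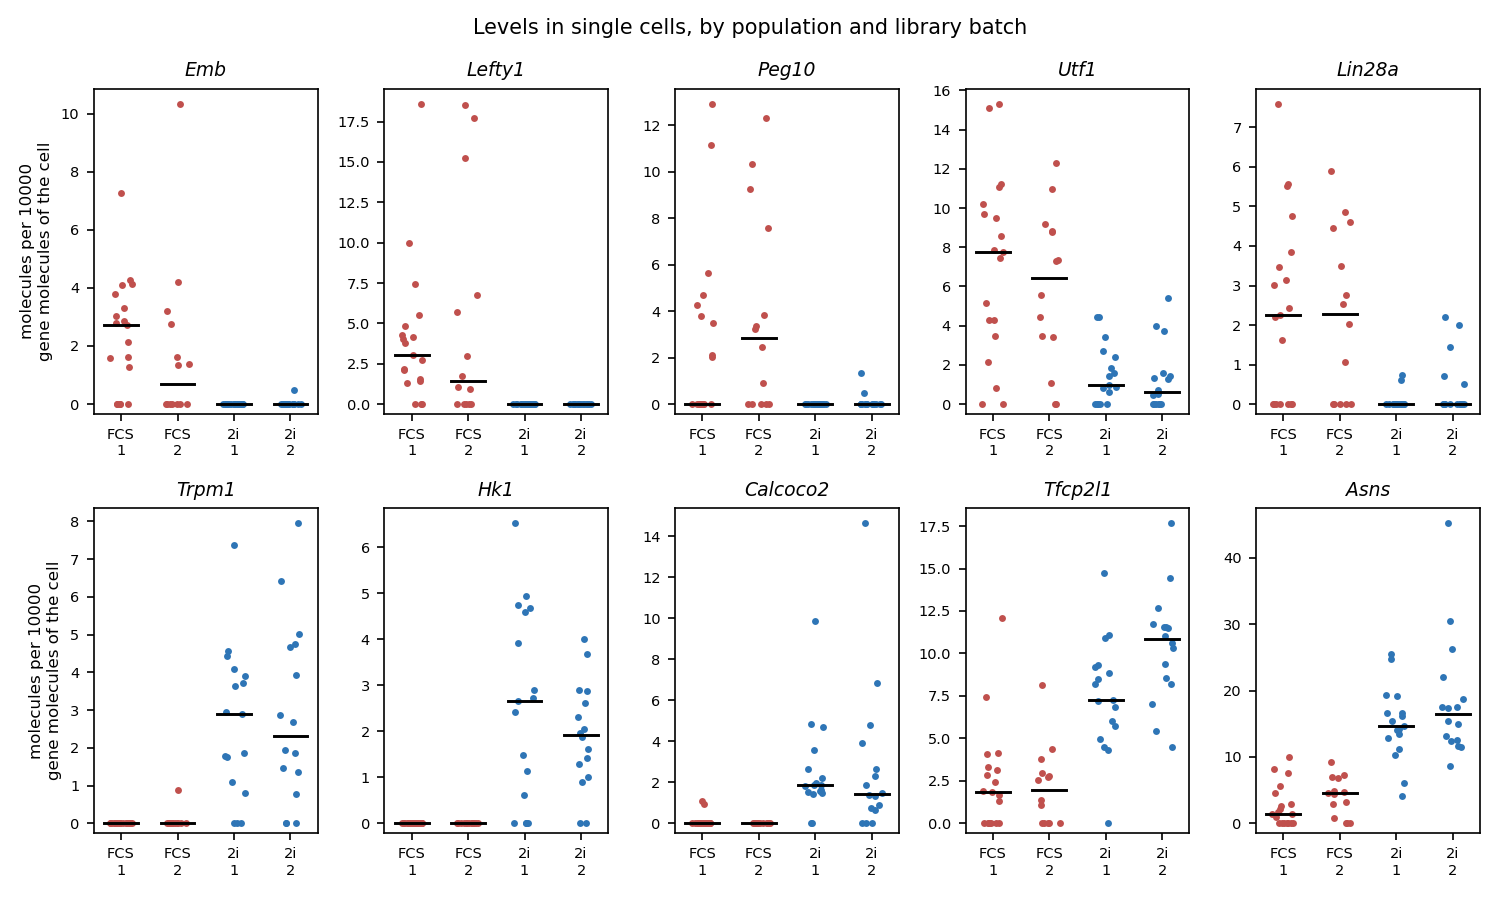
Level of 10 genes in every cell (points), in molecules per 10000 gene molecules of the cell, by population and library batch, with the median as a bar. Emb, Lefty1 and Peg10 have many ESC-FCS cells above 2 and almost no ESC-2i cell above 0, whereas Trpm1, Hk1 and Calcoco2 show the reverse. Utf1, Tfcp2l1 and Asns are present in both populations with shifted medians.

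By difference in level rather than by fold, the genes leading in ESC-FCS were Gm26917 (27.2 against 10.5), Rps3a3 (19.2 against 7.82), Ifitm1 (14.4 against 4.23), Tmsb4x (10.0 against 2.42), Hspb1 (13.0 against 6.24) and Utf1. Tmsb4x encodes thymosin beta 4, which sequesters actin monomers, and was higher in both ESC-FCS batches (10.1 and 9.96) than in those of ESC-2i (2.52 and 2.32), a 4.14-fold difference (3.23 to 5.36). Ifitm1, an interferon-induced membrane protein of the early germ line, differed 3.40-fold (2.80 to 4.14). Its family members share sequence, so the split of reads between them is uncertain, and Ifitm2 was called in the other direction (log2 fold of -1.10). Rps3a3 is a copy of a ribosomal protein gene that lies within Pde4d, and only 11.2% of the molecules of the noncoding Gm26917 lay at its annotated end, most being assigned to it from downstream sites, so both are uncertain. Without ESC-2i library batch 2, Gm26917 and Rps3a3 were below 2-fold (log2 folds of 0.93 and 0.95), as was Hspb1 without ESC-FCS library batch 2 (0.80).

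The largest folds towards ESC-2i belonged to Trpm1, Crxos, Calcoco2 and Hk1. Trpm1, a cation channel best known from melanocytes and retina (ENSMUSG00000030523, chromosome 7, 64153835 to 64269775, + strand), had 106 molecules in 27 of 33 ESC-2i cells and 1 in ESC-FCS. The median ESC-2i cell had 2.70 and the highest 7.95, while the only ESC-FCS cell with a molecule had 0.873. Crxos, a homeobox gene of the oocyte and early embryo (ENSMUSG00000074365, chromosome 7, 15882617 to 15904020, + strand), also had 106 molecules in 27 ESC-2i cells and 1 in ESC-FCS, and its batch levels were 3.21 and 2.58 against 0 and 0.104. Both genes thus had a log2 fold of -6.03 (-11.34 to -3.52), which without ESC-FCS library batch 2, where the single molecule was found, is bounded at -3.64 or lower and without batch 1 was -4.79. Calcoco2, an autophagy receptor (ENSMUSG00000006056, chromosome 11, 96099326 to 96111964, - strand), had 91 molecules against 2 (log2 fold of -4.81, -7.87 to -2.91, and -2.99 or lower without ESC-FCS library batch 1, which held both, or -4.01 without batch 2). Hk1, a hexokinase that starts glycolysis (ENSMUSG00000037012, chromosome 10, 62268855 to 62379908, - strand), had 83 molecules in 27 ESC-2i cells and none in ESC-FCS. It was at least 17.0-fold higher in ESC-2i, with batch levels of 2.58 and 1.96 against a limit of 0.132 for 3 molecules in ESC-FCS (lower end of the interval 13.5). Its log2 fold was -2.86 or lower without ESC-FCS library batch 1 and -3.29 or lower without batch 2.

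Below these came Ccs (the copper chaperone of superoxide dismutase, 8.98-fold), Marc2 (a mitochondrial reductase, 6.55-fold), Selenow (a selenoprotein, 5.71-fold), Ass1 (the urea cycle enzyme that forms argininosuccinate, 5.66-fold), Cobl (an actin nucleator, 5.64-fold), the pseudogene Gm12739 (5.61-fold) and Cmtm7 (4.98-fold). All ESC-FCS molecules of Cobl lay in batch 1, and it was 3.24-fold higher in ESC-2i without ESC-FCS batch 2 and at least 9.60-fold without batch 1. Ass1 was the most abundant of them. Every ESC-2i cell held an Ass1 molecule, at batch levels of 6.65 and 8.25, whereas 19 ESC-FCS cells did, at 1.38 and 1.24 (interval of the fold 3.88 to 8.55). By difference in level, ESC-2i was led by the metallothionein Mt1 (64.0 against 17.9), the processed pseudogene Gm2830 (50.7 against 13.8), whose reads may belong to its parent gene, the glutathione peroxidase Gpx1 (32.6 against 6.84), Mt2 (32.8 against 11.9), Asns (16.5 against 3.31) and Tdh (14.6 against 7.06). Gpx1 removes hydrogen peroxide with glutathione. Its ESC-2i batches, at 32.4 and 32.7, hardly differed and lay 4.76-fold (4.03 to 5.67) above those of ESC-FCS at 6.22 and 7.67.

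**Figure D3:**
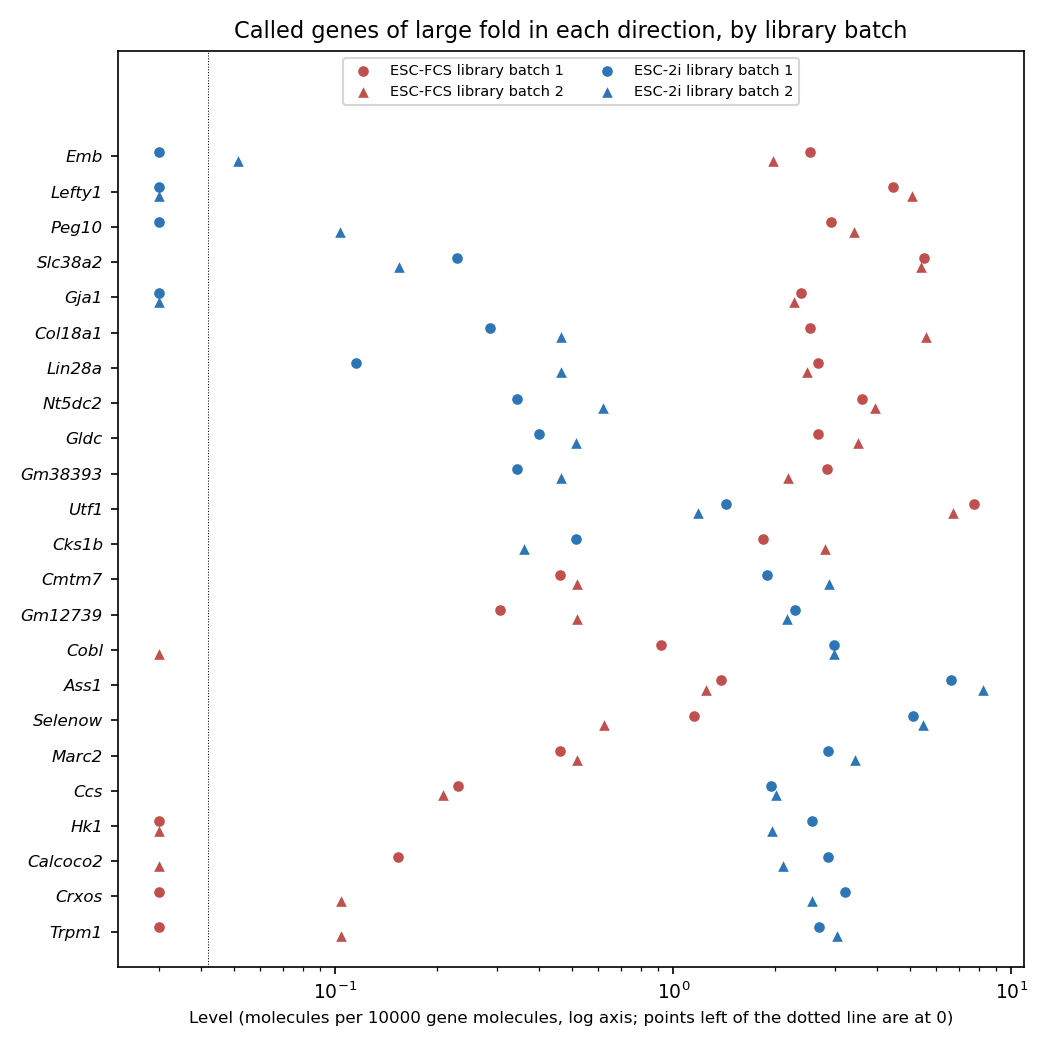
Levels, in molecules per 10000 gene molecules on a log axis, of genes among the 12 called with the largest fold in each direction at a mean level of at least 1, in each of the 4 library batches. For every gene drawn, both ESC-FCS batches (red) lie on the same side of both ESC-2i batches (blue), as the rule for a call requires.

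Naive pluripotency factors were mostly on the ESC-2i side relative to other genes. Of 11, 8 were above the floor, 2 were called higher in ESC-2i and none in ESC-FCS, and the median log2 fold was -0.46 (-0.72 to -0.34 over the batch pairs, and 0.58 with spike-in scaling). Of all compared genes, 7.41% were called in ESC-FCS and 10.0% in ESC-2i. The counts of called genes in every list below are to be read beside these shares. Tfcp2l1, a factor downstream of STAT3 and GSK3 inhibition, had 318 molecules in 32 ESC-2i cells (7.05 and 10.1 per 10000 in the batches) and 62 in 21 ESC-FCS cells (2.61 and 2.90), a log2 fold of -1.66 (-2.08 to -1.26). Tbx3, a T-box factor that sustains self-renewal, had 58 molecules against 7 (-2.35, -3.73 to -1.22, and -3.92 without ESC-FCS batch 1). Nanog (-0.64, -1.07 to -0.23) and Esrrb (-0.39, -0.69 to -0.10) had batch levels in the same order but were under 2-fold, and Zfp42 (-0.53, -1.25 to 0.15), Klf5 (-0.15), Klf2 (-0.03) and Nr0b1, the only one on the ESC-FCS side (0.26, -0.55 to 1.04), could not be told from equal levels at this depth. Klf4, Prdm14 and Nr5a2 were under the floor, with 6, 7 and 8 molecules in ESC-FCS and 20, 24 and 21 in ESC-2i.

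Other pluripotency-associated genes split by direction. Of 14, 11 were above the floor, with a median log2 fold of 0.26. Among these, 4 were called higher in ESC-FCS and 1 in ESC-2i, beside 7.41% and 10.0% of all compared genes. Besides Utf1 and Lin28a, the paired chromatin factors Dppa4 (2.04, 1.28 to 2.84) and Dppa2 (1.65, 0.74 to 2.62), which bind and keep open developmental promoters, were higher in ESC-FCS, Dppa4 with 53 molecules against 21 and Dppa2 with 31 against 16. Without ESC-FCS batch 1 Dppa4 was at 1.00, and Lin28a was at 2.49 or 4.50 without ESC-2i batch 1 or 2. Tdh, the threonine dehydrogenase on which mouse embryonic stem cells depend, was the gene called in ESC-2i, at -1.05, and was below 2-fold without ESC-FCS batch 1 (-0.86) or ESC-2i batch 1 (-0.97). Sox2 had 52 molecules in ESC-FCS and 60 in ESC-2i (0.49, -0.07 to 1.05), and Pou5f1, at 4 and 19 molecules, was too sparse in these libraries to be compared (-1.55, -3.56 to 0.04). Fgf4, whose signal through ERK drives exit from the naive state, had a log2 fold of -0.92 (-1.62 to -0.27), just under 2-fold. Of 11 formative and primed genes, 9 were under the floor. Dnmt3b was called higher in ESC-FCS and Cd24a, at 0.51 (-0.28 to 1.29), was not called.

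The Nodal pathway had called genes in both directions among the 6 of its 13 genes above the floor. The target and inhibitor Lefty1 was accompanied in ESC-FCS by Skil, a SMAD-binding corepressor and TGF-beta target, with 24 molecules against 3 (log2 fold of 3.70, 1.98 to 6.08). Lefty1 and Skil, at 0 and 0.0814 in ESC-2i, passed the floor only through ESC-FCS. Lefty2, named after its values were seen, was under the floor with 15 molecules against 0, at least 8.13-fold higher in ESC-FCS against 3 molecules. In contrast, the ligand Nodal itself was higher in ESC-2i, with 53 molecules in 26 cells against 11 in 9 cells (-1.57, -2.65 to -0.61), and so was Pcsk6, a convertase that processes Nodal, with 62 molecules against 5 (-2.93, -4.60 to -1.63). The coreceptor Tdgf1 differed little (-0.06, -0.41 to 0.28). Nodal was at -2.23 without ESC-FCS library batch 2. Without ESC-FCS library batch 1, Nodal was at -0.99, Pcsk6 at -4.02 and Skil, at 2.67, was under the floor.

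The enzymes of de novo DNA methylation were higher in the single ESC-FCS cells. Of 10 genes of DNA methylation and demethylation, 8 were above the floor, with a median log2 fold of 0.79. Among these, 4 were called in ESC-FCS and 1 in ESC-2i, beside 7.41% and 10.0% of all compared genes. The methyltransferases Dnmt3a (27 molecules against 4, 3.46, 1.93 to 5.43) and Dnmt3b (49 against 21, 1.92, 1.16 to 2.73) and their cofactor Dnmt3l (76 against 24, 2.36, 1.68 to 3.09) were called, as was Mbd3, a subunit of the NuRD complex (50 against 36, 1.17, 0.53 to 1.83). Dnmt3a rested on ESC-FCS library batch 1, with a level of 1.84 there and 0.311 in batch 2, and without batch 1 it was under the floor at 1.52. At 0.109 in ESC-2i, Dnmt3a passed the floor on the mean level only through ESC-FCS. For Dnmt3l, 24 of the 76 molecules were in 1 cell, and without batch 1 the log2 fold was 1.44. Uhrf1, which recruits the maintenance enzyme to replicated DNA, was the gene higher in ESC-2i, with 156 molecules in 31 cells against 35 in 19 cells (-1.46, -2.03 to -0.92). The maintenance enzyme Dnmt1 (0.33, -0.24 to 0.90) and the demethylating Tet1 (0.40, -0.22 to 1.01) were not called.

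Imprinted genes, which are expressed from 1 parental allele, included several of the largest differences. Of 27 genes, 17 were in the table and only 5 were above the floor, and 4 of these were called higher in ESC-FCS and none in ESC-2i. Besides Peg10, these were Phlda2 (28 molecules against 1, log2 fold of 5.51, 2.91 to 10.86), a brake on placental growth, Cdkn1c (32 against 3, 4.12, 2.44 to 6.47), a CDK inhibitor that is a neighbour of Phlda2 in the genome, and Gnas (82 against 60, 1.15, 0.65 to 1.66), a G-protein subunit. Meg3 was the exception, with 32 molecules against 57 (-0.13, -0.80 to 0.52). Peg10, Phlda2 and Cdkn1c, at 0.0543, 0.0271 and 0.0814 in ESC-2i, passed the floor on the mean level only through ESC-FCS. The count of called imprinted genes was therefore partly set by the floor. Of all compared genes, 7.41% were called in ESC-FCS. Cdkn1c had levels of 2.15 and 0.415 in the ESC-FCS batches and was under the floor, at 2.35, without batch 1, at 4.72 without batch 2 and at 4.77 without ESC-2i batch 1. In the pools described further on its direction was the reverse, with 5.15 and 6.18 in the ESC-2i pools, 0.223 in the ESC-FCS pool and 0.399 in ESC-FCS control cells. Gnas was below 2-fold without ESC-FCS batch 1 (0.88) or ESC-2i batch 1 (0.85). Phlda2 was at least 3.00 without ESC-2i library batch 1, which held its only molecule in ESC-2i, and was at 4.43 without batch 2.

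Target genes of the ERK and Wnt pathways, on which the inhibitors act, were mostly too rare to compare. Of 17 targets of ERK signalling, 13 were under the floor and none of the 3 above it was called. Etv5 had levels of 3.26 and 4.04 (-0.31, -0.73 to 0.10), Ier2 1.54 and 1.14, and Ccnd1 0.750 and 1.00. Among the rare ones, and named after their values were seen, the feedback inhibitor Spry4 had 13 molecules in ESC-FCS and 1 in ESC-2i (4.40, 1.67 to 9.81), and the ERK phosphatase Dusp6 had 9 and 0 (at least 4.88-fold against 3 molecules). Other members had more molecules in ESC-2i, namely Spred2 with 4 and 12 (-0.88, -2.97 to 0.84), Ier3 with 4 and 9, Fos with 3 and 7 and Etv4 with 2 and 5, all with intervals that include equal levels. Spry2, another feedback inhibitor, had 8 and 7 molecules (0.89, -0.76 to 2.59). No Wnt target was above the floor. The summed level of the 12 in the table was 1.24 in ESC-FCS and 1.38 in ESC-2i, and Axin2, with 3 and 4 molecules, gave no measurable difference.

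Most genes of LIF-STAT3 signalling and most BMP-induced Id genes were under the floor. Of 12 genes, 3 were above it, and Id3 (47 molecules against 19, log2 fold of 2.01, 1.21 to 2.86) and the kinase Pim3 (30 against 19, 1.36, 0.48 to 2.27) were called higher in ESC-FCS. The share of all compared genes called in ESC-FCS was 7.41%. Of the Id3 molecules in ESC-FCS, 14 were in 1 cell, and Id3 was at 3.01 or 1.37 without ESC-2i batch 1 or 2. The related Id1 and Id2, inhibitors of bHLH factors like Id3 and named after their values were seen, had 17 and 18 molecules in ESC-FCS against 1 and 2 in ESC-2i (4.79, 2.11 to 10.17, and 3.87, 1.81 to 7.02). The STAT3 target Socs3 (5 against 9 molecules) and Stat3 itself (12 against 11) were too rare to compare, and the receptor subunit Il6st, the third above the floor, was on the ESC-2i side at -0.65 (-1.80 to 0.40).

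Glycolytic genes were called in both directions and did not shift as a group. Of 22, 16 were above the floor, 3 were called in each direction, and the median log2 fold was -0.03. The shares of all compared genes that were called were 7.41% in ESC-FCS and 10.0% in ESC-2i. ESC-2i had higher levels of Hk1, of Pfkp (-1.44, -2.15 to -0.79), the platelet form of phosphofructokinase, and of Gpi1 (-1.26, -1.71 to -0.84). ESC-FCS had higher levels of Pdk1 (2.29, 1.08 to 3.65), which inhibits pyruvate dehydrogenase, of Pfkl (1.33, 0.51 to 2.17), the liver form of phosphofructokinase, and of the glucose transporter Slc2a1 (1.30, 0.54 to 2.09). Aldoa lay just outside the fold at -0.98 (-1.28 to -0.70), with 5.78 against 11.4. Hk2, the other hexokinase above the floor, had 13 and 32 molecules (-0.60, -1.65 to 0.37). Pfkl rested on ESC-2i library batch 2 and was at 0.80 without it, and at 2.05 without batch 1. In the pools described further on, Pfkl (-0.12) and Slc2a1 (-0.31) had the opposite direction. Pdk1 (3.37), Pfkp (-0.73) and Gpi1 (-0.24) had the same direction there. Pdk1, at 0.217 in ESC-2i, passed the floor only through ESC-FCS, and Hk1, at 0 in ESC-FCS, only through ESC-2i.

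Genes of the amino acid response were led by Asns. Of 20 genes of this response and of serine synthesis, 9 were above the floor. Among these, 1 was called in ESC-FCS and 3 in ESC-2i, beside 7.41% and 10.0% of all compared genes. Asns, the asparagine synthetase, had 606 molecules in all 33 ESC-2i cells (15.6 and 17.2 per 10000 in the batches) and 75 in 23 ESC-FCS cells (2.46 and 4.46), a log2 fold of -2.31 (-2.68 to -1.97). Atf4, the factor that induces it, had 92 against 23 molecules (-1.30, -2.03 to -0.63), and Cth, a cysteine-forming enzyme, 36 against 11 (-1.01, -2.13 to -0.00). Psat1, an enzyme of serine synthesis, was higher in ESC-FCS (1.16, 0.67 to 1.65). The serine and folate enzymes Shmt1, Shmt2 and Psph were between 0.19 and 0.32, and the list had a median of 0.19 (-0.73 to 0.97 over the batch pairs). Without 1 library batch, Atf4 (-0.98, without ESC-2i batch 2), Cth (-0.65, without ESC-FCS batch 1) and Psat1 (0.94, without ESC-2i batch 1) were below 2-fold.

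Metallothioneins, which bind zinc and copper, were called higher in ESC-2i. Mt1 had 2358 molecules in ESC-2i and 405 in ESC-FCS, with batch levels of 60.3 and 67.3 against 21.2 and 13.4, a 3.58-fold difference (3.22 to 3.99). Mt2 followed with 30.3 and 35.0 against 13.2 and 10.2 (-1.46, -1.66 to -1.27). Of the 5 genes of metal binding and iron storage above the floor, the transferrin receptor Tfrc was called in the other direction (1.08, 0.39 to 1.78), and the ferritin chains Fth1 (-0.07, -0.28 to 0.15) and Ftl1 (0.56, -0.22 to 1.33) were not called. Tfrc was at 0.70 without ESC-FCS library batch 2 and at 0.88 without ESC-2i library batch 1.

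Among the 14 genes of cholesterol synthesis above the floor (of 26), 2 were called higher in ESC-2i, and the median log2 fold was -0.42 (0.62 with spike-in scaling). Hmgcs1, which makes HMG-CoA, was 1 of them and close to the threshold. It had 4.59 and 4.95 in the ESC-2i batches but 3.22 and 1.24 in those of ESC-FCS, and its log2 fold, just past the threshold, became -0.57 without ESC-FCS library batch 2, -1.94 without batch 1 and -0.95 without ESC-2i library batch 2.

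Most genes of the Myc network and the nucleolus had higher levels in ESC-FCS. Of 25 genes, 20 were above the floor, 17 of these had higher levels in ESC-FCS, 4 were called there and none in ESC-2i, and the median log2 fold was 0.54 (0.44 to 0.66 over the batch pairs). Of all compared genes, 7.41% were called in ESC-FCS. The called genes were Srm, the spermidine synthase (171 molecules against 101, 1.46, 1.10 to 1.83), Wdr12 (1.13, 0.49 to 1.79), the nucleolar helicase Ddx21 (1.08, 0.25 to 1.93) and Nolc1 (1.03, 0.31 to 1.76). Except for Srm, these were lost without 1 library batch, Wdr12 at 0.74 without ESC-2i batch 2, Ddx21 at 0.87 and Nolc1 at 0.56 without ESC-FCS batch 1, and Nolc1 at 0.89 without ESC-2i batch 1. In the pools described further on, Wdr12 (-0.51), Ddx21 (-0.13) and Nolc1 (-0.44) had the opposite direction, and Srm (1.19) had the same. Cytosolic ribosomal proteins took 1955 of every 10000 molecules in ESC-FCS and 1812 in ESC-2i. Of 78 above the floor, 1 was called in each direction and the median was 0.12 (-0.15 to 0.31 over batch pairs). The gene called in ESC-2i, Rpl10l (-1.93), a retrogene copy, had 5 and 31 molecules and was at -0.70 without ESC-FCS batch 1 and under the floor without ESC-FCS or ESC-2i batch 2.

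Nuclear genes of the respiratory chain leaned the other way. Of 75 above the floor, 53 had higher levels in ESC-2i and 22 in ESC-FCS, with a median log2 fold of -0.18 (0.87 with spike-in scaling). The ATP synthase subunit Atp5k (-1.20, -1.60 to -0.80) and the complex I subunits Ndufb4 (-1.10, -1.53 to -0.69) and Ndufc1 (179 molecules against 55, interval -1.47 to -0.56) were called in ESC-2i and Atp5j (1.42, 0.40 to 2.49) in ESC-FCS, and each of these calls was lost without 1 library batch, at -0.92, -0.89, -0.64 and 0.82, while Atp5j was at 2.30 without ESC-2i batch 1. Of the 16 genes of the mitochondrial genome above the floor, the transfer RNA gene mt-Tl1 was called in ESC-FCS, with 44 of its 108 molecules in 1 cell and 0.86 without ESC-FCS batch 1, and the median was 0.31 (-0.14 to 0.76 over batch pairs). Only 9.09% of the mt-Tl1 molecules lay near its annotated end. It had 169 molecules in the ESC-FCS pool but 1 in the ESC-FCS control cells, so its call is uncertain. The paper set mitochondrial reads aside, since such RNAs are polyadenylated while being degraded. Of 32 proteasome subunits above the floor, Psmb10 (1.59), an immunoproteasome subunit, and Psma1 (1.12) were higher in ESC-FCS and Psmd3 (-1.14) in ESC-2i, and the median was -0.18 (0.87 with spike-in scaling). Psma1 (0.83, without ESC-FCS batch 2) and Psmd3 (-0.76, without ESC-2i batch 2) were below 2-fold when 1 batch was left out, and Psmb10 was at 2.74 without ESC-2i batch 2. None of 20 chaperones above the floor was called, and their median was 0.18.

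Genes of G1 control were called in both directions between these cells, which had been sorted in G0/G1. Of 9 above the floor, 3 were called in ESC-FCS and 2 in ESC-2i, beside 7.41% and 10.0% of all compared genes. The median was -0.42 (0.62 with spike-in scaling). Cyclin E1 (Ccne1, 2.09, 1.27 to 2.96), Cdk6 (1.36, 0.25 to 2.54) and Cdkn1c were higher in ESC-FCS. Cdk6 is uncertain, with 19 molecules against 12, of which only 22.6% lay in its terminal exon or near its annotated end. Its call was lost with each cell at the same weight and with cells thinned to 2000 molecules. Cyclin D3 (Ccnd3, -1.15, -1.73 to -0.61) and the CDK inhibitor p21 (Cdkn1a, 47 molecules in 22 ESC-2i cells against 3 in ESC-FCS, -3.27, -5.60 to -1.63) were higher in ESC-2i. Cdkn1a, at 0.132 in ESC-FCS, passed the floor only through ESC-2i. Cdk4 was at 9.62 and 9.61 in the populations. Without ESC-FCS batch 1, Ccnd3 was at -0.92, and without ESC-2i batch 1, which had 1.95 of Cdkn1a against 0.670 in batch 2, Cdkn1a was under the floor at -2.34. Cdkn1a was at -2.62 or -4.05 without ESC-FCS batch 1 or 2 and at -3.88 without ESC-2i batch 2, and Ccne1 was at 2.85 without ESC-2i batch 2. Of 21 genes of DNA replication and mitosis above the floor, 19 had higher levels in ESC-FCS and the median was 0.49, but only 2 were called, a smaller share than the 17.5% of all compared genes. These were Top2a (1.34, 0.68 to 2.03) and Rrm2 (1.09, with 119 molecules against 91), and without ESC-FCS batch 1 they were at 0.74 and 0.64.

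Of 15 genes of the actin cytoskeleton and serum response above the floor, Tmsb4x was called in ESC-FCS and the actin-binding Tagln2 (-1.77, -2.59 to -1.04) and the intermediate filament vimentin (Vim, -1.01, -1.86 to -0.23) in ESC-2i, a share close to the 17.5% of all compared genes. Without ESC-FCS batch 1 Tagln2 was at -1.01 and Vim at -1.95, and without batch 2 they were at -2.82 and -0.58. Of 9 genes of adhesion and basement membrane above the floor, Epcam (32 molecules against 7, 2.89, 1.69 to 4.32) and the integrin Itgb1 (1.46, 0.41 to 2.57) were higher in ESC-FCS, and the matrix protein Sparc (93 molecules in 28 ESC-2i cells against 12 in 7 ESC-FCS cells, -2.25, -3.26 to -1.38) in ESC-2i. Without ESC-2i batch 2, Epcam was at 2.30 and Itgb1 at 2.08, and without ESC-2i batch 1 Epcam was at 3.77. Epcam, at 0.190 in ESC-2i, passed the floor only through ESC-FCS. E-cadherin (Cdh1) was at 2.65 and 2.77. Of 3 germline-associated genes above the floor, Fmr1nb (-1.18, -2.19 to -0.28) was called in ESC-2i. Its 13 ESC-FCS molecules lay in 5 cells of batch 1, and without batch 2 it was at -0.38, and at -2.07 or lower without batch 1. Of 8 noncoding and snoRNA host genes above the floor, Gas5 (-1.74, -2.56 to -1.01) and Snhg6 (-1.17, -1.89 to -0.51) were higher in ESC-2i, with a list median of -0.40 (0.64 with spike-in scaling). Gas5 was at -0.98 without ESC-FCS batch 1 and -2.79 without batch 2, and Snhg6 was at -0.96 without ESC-FCS batch 2 and -0.92 without ESC-2i batch 2.

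**Figure D4:**
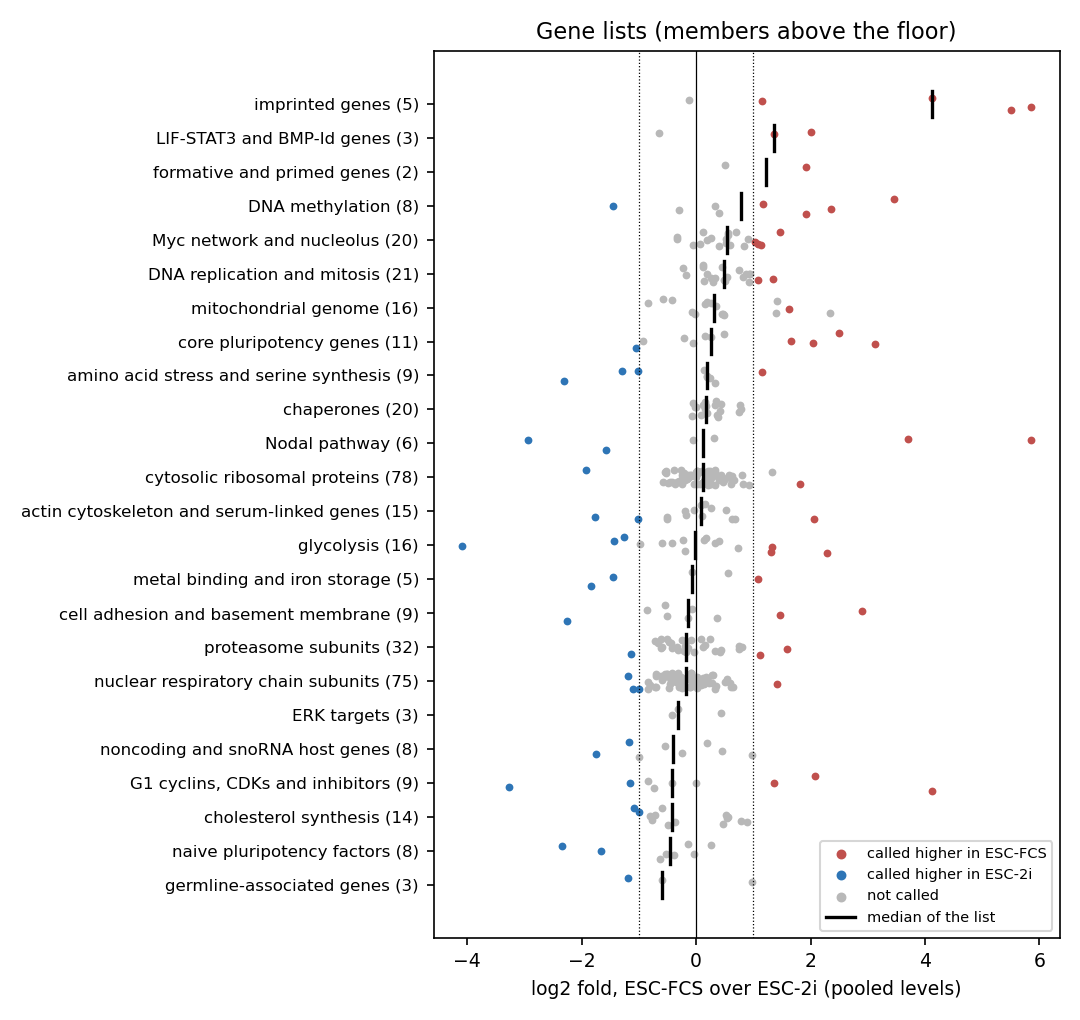
Log2 fold, ESC-FCS over ESC-2i, of the genes above the floor in each of 24 gene lists (points, with the number of genes in brackets), with the list median as a black bar and 2-fold differences as dotted lines. Imprinted genes and the DNA methylation list extend to the ESC-FCS side, and most members of the large lists (ribosomal proteins, respiratory chain, proteasome) stay within 2-fold.

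A second set of libraries, which did not enter the calls, allowed the directions to be compared. It held a pool of 48 ESC-FCS cells (179155 gene molecules), 48 ESC-FCS control cells processed singly (225537) and 2 pools of ESC-2i cells (479483 and 494799). In the ESC-FCS pool against the ESC-2i pools, 183 of the 262 genes called in ESC-FCS (69.8%) were higher in ESC-FCS, against 50.4% of all compared genes, and 232 of the 355 genes called in ESC-2i (65.4%) were higher in ESC-2i, against 49.1%. At least 2-fold differences in the called direction were seen for 43.9% and 43.7% of them, against 29.1% and 24.4% of all genes. With the control cells in place of the ESC-FCS pool, 63.0% and 70.4% had the called direction, against 46.1% and 53.5% of all genes.

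The ESC-2i pools differed from the single cells in transcript length. For genes whose longest annotated transcript is up to 500 nt, the median log2 ratio of the ESC-2i pools to the ESC-2i cells was -5.16, and it was -3.20 between 500 and 1000 nt, -0.45 between 1000 and 2000 nt and 0.61 between 2000 and 4000 nt. In the ESC-FCS pool the corresponding values against ESC-FCS cells were -1.27, -0.73, -0.02 and 0.28. The cause was not tested. Mt1, Mt2, Ifitm1 and Cks1b, with longest transcripts of 511 to 1085 nt, were all higher in the ESC-FCS pool, by 5.20, 5.61, 4.27 and 4.22 on the log2 scale, whatever their direction in single cells. In the comparison of single cells the median fold was between -0.02 and 0.04 in every length class. Of the called genes with a longest transcript over 2000 nt, 107 of 171 called in ESC-FCS (62.6%, against 40.5% of all such genes) and 184 of 251 called in ESC-2i (73.3%, against 59.5%) had the same direction in the pools.

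**Figure D5:**
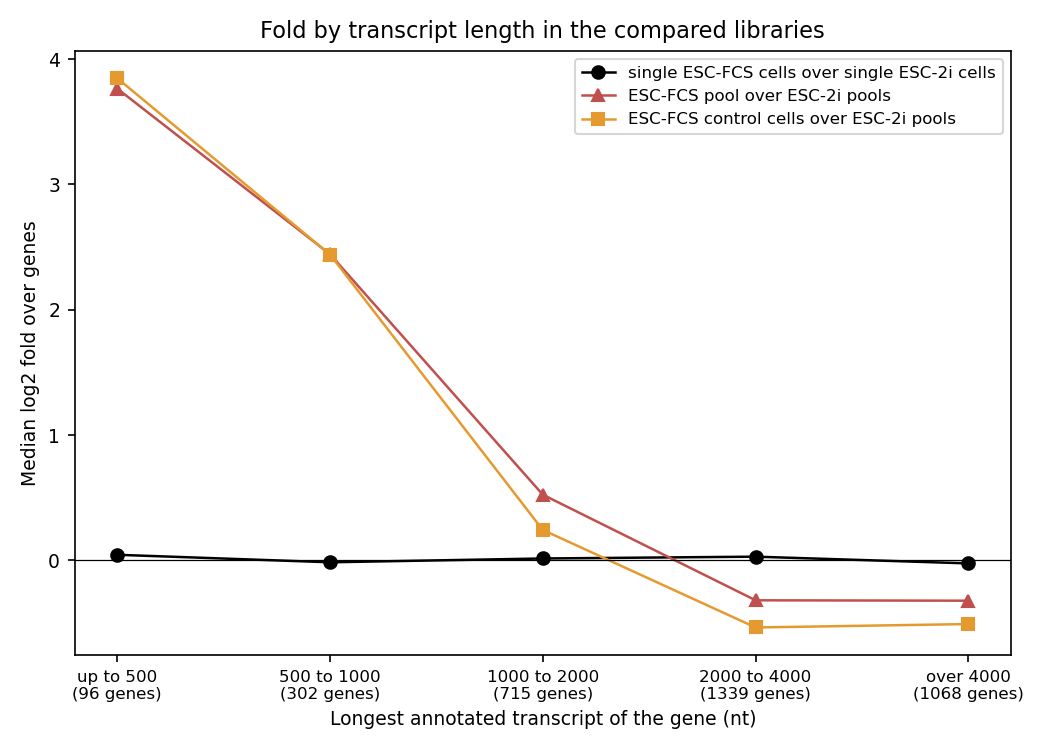
Median log2 fold, ESC-FCS over ESC-2i, by length of the longest annotated transcript, for single cells (black), the ESC-FCS pool over the ESC-2i pools (red) and ESC-FCS control cells over the ESC-2i pools (orange). Single cells stay near 0 in all 5 length classes, while both comparisons with the ESC-2i pools fall from above 3.5 for the shortest genes to below 0 for genes over 2000 nt.

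Among the leading genes with transcripts over 1000 nt, the pools and the single cells differed in size for several. In the ESC-2i pools, Crxos (127 and 46 molecules), Trpm1 (89 and 134), Calcoco2 (364 and 430), Hk1 (116 and 110), Ass1 (427 and 527) and Marc2 (178 and 113) were all present, and the ESC-FCS pool had 0, 0, 6, 9, 29 and 6. Emb (1.28 in the ESC-FCS pool against 0.0626 and 0.141 in the ESC-2i pools) and Lin28a (1.28 against 0.146 and 0.303) were also separated. Lefty1, absent from the single ESC-2i cells, had 41 and 30 molecules in the ESC-2i pools, at 0.855 and 0.606, where the ESC-FCS pool was at 1.67 and the control cells at 1.33. Peg10 (2.06 and 1.56 against 3.18), Gja1 (1.69 and 1.33 against 2.85) and Slc38a2 (3.52 and 4.77 against 5.25) were likewise present in the ESC-2i pools, at log2 folds of 0.82, 0.92 and 0.34. Near absence of these 4 genes from ESC-2i was thus seen in the single cells and not in the pools. For the named lists, Tfcp2l1 (-1.58), Tbx3 (-3.72), Nodal (-2.01), Asns (-1.32) and Sparc (-1.93) were lower in the ESC-FCS pool. The opposite direction to that in single cells was found for 13 of the 49 named genes called in ESC-FCS and 18 of the 42 called in ESC-2i (12 of 28 and 4 of 23 with a longest transcript over 2000 nt). Cdkn1c had the largest reversal towards ESC-2i, with 553 molecules in the ESC-2i pools and 4 in the ESC-FCS pool (-4.67, and -3.83 for the control cells). Psat1 (-1.24), Itgb1 (-1.06), Dnmt3a (-0.85) and Dnmt3b (-0.74) were also higher in the ESC-2i pools. In the reverse sense, Gas5 (3.34) and Cdkn1a (0.996, but -0.47 with the control cells) were higher in the ESC-FCS pool, as were Gpx1 (0.45), Ccs (0.34) and Uhrf1 (0.35) by smaller folds.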

How the data were processed

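Single mouse embryonic stem cells and pools of cells were sequenced at the 3′ ends of polyadenylated transcripts with molecular identifiers (BATSeq). Cells were sorted singly into wells by the authors, with spike-in RNA in the lysis buffer. The deposited values are counts of molecules per gene and cell, and counts of molecules and reads per polyadenylation site. To make these counts, the authors aligned the reads to GRCm38 with GSNAP, merged identifiers within 1 base and positions within 12 nt, and assigned sites up to 20 kb downstream of a gene to it. HTSeq and R 3.0.2 are named in the submitters' processing notes. No read was realigned here, and no doublet caller was run.

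Molecules were pooled per population and library batch and scaled to 10000 gene molecules, with spike-ins left out. ESC-FCS comprised 226683 molecules and ESC-2i 368362. Genes with a mean of both levels of at least 0.5 were compared, and called at 2-fold with the same direction in all 4 batch pairs. Library batches share a culture and are technical. A population at 0 was set to 3 molecules and the fold given as a bound. Intervals are exact at 95% and cover counting error only. As each population is 1 culture, no p-value is given.

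Named genes were the 12 called genes with the largest fold in each direction at a mean level of at least 1, the 6 with the largest difference in level in each direction, up to 4 called members per list and direction, and Nanog, Sox2, Pou5f1 and Zfp42. List members near the threshold were also allowed, and some genes that the rule selects are not reported here. The cells, the 25 gene lists and the marker lists were chosen with earlier results of these data known. Names were matched for 19321 of 19736 genes, and gene positions and transcript lengths come from the GENCODE annotation on GRCm38. Calculations used Python 3.11.15, numpy 2.4.6, scipy 1.17.1 and pandas 2.3.3, and were tested on simulated data. TMM factors for 1 alternative came from edgeR 4.0.16 in R 4.3.3. Alternatives covered the floor, fold, pseudocount, scaling, weighting, depth, unit and library batches.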

Additional observations from a re-analysis of the deposited data

How the results depend on the processing

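Lowering the floor to 0.25 gave 559 genes higher in ESC-FCS, 749 higher in ESC-2i and 2833 with 1 direction in all batch pairs. A floor of 1 gave 99, 139 and 931, and no floor other than 1 molecule gave 1391, 1419 and 5679. At 1.5-fold, 577 and 663 genes were called, and at 3-fold 98 and 128. Spike-in scaling gave 2217 genes higher in ESC-FCS and 57 in ESC-2i, with 3120 of 1 direction. The ESC-FCS share of calls was then 97.5%, against 42.5% with gene molecules, and the log2 fold of 26 called genes changed sign. On that scale Ndufc1 (0.041), Hmgcs1 (0.039), Cth (0.033) and Vim (0.031) had the opposite sign. Cells thinned to 2000 molecules gave 445 genes higher in ESC-FCS and reads in place of molecules 415, and they kept 341 and 374 of the 617 calls. Leaving out 1 library batch gave 281 to 444 genes higher in ESC-FCS, 408 to 468 higher in ESC-2i and 2562 to 2782 of 1 direction (2708 without ESC-FCS batch 2), where fewer batch pairs had to concur. An alternative chosen after seeing the data, each gene without the cell holding most of its molecules, gave 171 and 258 genes and lost 14 of 91 named calls. The share of calls with the same direction in the second set of libraries was 67.3%, and 62.3% at 1.5-fold and 77.0% at 3-fold. With a longest transcript over 1000 or 2000 nt, also chosen after seeing the data, it was 67.9% and 69.0%. TMM factors and median-ratio size factors kept 617 and 614 calls. No paired analysis was possible because the comparison rests on no test and batch numbers mark no shared culture. Causes of these changes were not tested.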

Other observations

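The gene families below were assembled after the values had been seen, so that their counts are a description, to be read beside the 17.5% of all compared genes that were called. Lysosomal genes were mostly on the ESC-2i side. Of 17 lysosomal hydrolases and partners above the floor, cathepsins aside, 15 had higher levels in ESC-2i, 8 were called there and none in ESC-FCS, with a median log2 fold of -0.88. The sterol-binding protein Npc2 had 242 molecules in ESC-2i and 39 in ESC-FCS (-1.93, -2.46 to -1.44), and the protease Lgmn 37 and 3 (-2.92, -5.27 to -1.26). Lgmn, at 0.132 in ESC-FCS, passed the floor only through ESC-2i. Among 5 cathepsins, Ctsb (-1.75) and Ctsd (-1.66) were higher in ESC-2i, whereas Ctsz (1.63) was higher in ESC-FCS. Of 13 subunits of the proton pump that acidifies lysosomes, 3 were called in ESC-2i, including Atp6v1a (-1.64, -2.55 to -0.83).

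Redox genes differed within families. Of 9 selenoproteins above the floor, Selenow, Selenoh (-2.28, -2.88 to -1.73), Gpx1 and Msrb1 (-1.02) were called in ESC-2i, and Gpx4, which protects membrane lipids from peroxidation, in ESC-FCS (1.51, 0.42 to 2.66). Of 18 peroxiredoxins, superoxide and glutathione enzymes, 5 passed the rule towards ESC-2i and 2 towards ESC-FCS. The glutathione synthetase Gss had 55 molecules in ESC-2i and 2 in ESC-FCS (-4.08, -7.16 to -2.16), and Prdx6 had 75 and 121 (1.39, 0.96 to 1.83). Of 12 genes of mitochondrial fatty acid oxidation, 4 were higher in ESC-2i, led by Acadm (-2.55), and 2 in ESC-FCS. Amino acid transporters were split, with Slc38a2, Slc7a7 (2.97, 1.68 to 4.53) and Slc38a1 (1.41) higher in ESC-FCS and Slc7a1 (-1.65) and Slc1a5 (-1.05) in ESC-2i. Of 13 p53 target genes, 4 were called in ESC-2i (Cdkn1a, Mdm2 at -1.28, Mdm4 at -1.19 and Ccng1 with 231 molecules against 71) and none in ESC-FCS, with a median of -0.68. In the pools, where recovery differed by transcript length, some named family members had the opposite direction to single cells. These were Ctsz (-0.42), Selenoh (0.62), Gpx1 (0.45), Msrb1 (2.00), Prdx6 (-0.86), Acadm (0.94), Mdm4 (0.30) and Cdkn1a (0.996). The other genes named above from these families had the same direction in both.

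Annexins and COPII coat genes had called members in both directions, 1 in ESC-FCS and 2 in ESC-2i of 3 annexins, and 1 and 3 of 7 COPII genes. With spike-in scaling all folds in both families move towards ESC-FCS by the shift common to all genes, and those further than this shift on the ESC-2i side stay there.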
